A study of Sus scrofa with 8 samples.

Results

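Cytochrome c oxidase, complex IV of the respiratory chain, was followed here through its nuclear-encoded subunits in skeletal muscle of pigs on a high energy diet, set against pigs on a low energy diet. The members were 10 subunit genes chosen by name, and a spot belonged to a member when its only gene symbol in the platform annotation was that gene. Of the 10 genes, 9 had spots, which were 28 of the 9984 spots on the array, and COX5A was not analysed here. These were the muscle isoforms COX6A2 and COX7A1 and the general subunits COX4I1, COX5B, COX6A1, COX6C, COX7A2, COX7C and COX8A. The platform annotation gave 2922 gene symbols in all.

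The series asked how diet alters pig skeletal muscle. Each of the 8 arrays carried cDNA of 1 high energy and 1 low energy sample in 2 dyes, written 5 and 3 in the labels. The arrays formed 4 couples, each hybridised in both dye orientations: high energy sample 40 with low energy sample 49 (couple 1), 41 with 61 (couple 2), 40 again with 142 (couple 3) and ae with be (couple 4). The swapped arrays of a couple repeat its RNAs and counted as 1 replicate, so n is 4 couples, and couples 1 and 3 are not independent because they share sample 40. Whether a number stands for an animal or a pool, what be and ae mean, and the breed, age, muscle and feeding period are not stated in the labels. The spread between couples may therefore be partly technical. Because whole muscle RNA was used, a change per cell and a change in the mix of fibres or cells cannot be told apart.

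Cytochrome c oxidase passes electrons from cytochrome c to oxygen and pumps protons across the inner mitochondrial membrane. Its catalytic core is encoded in mitochondrial DNA, and a ring of small nuclear-encoded subunits surrounds it. Subunits 6A and 7A exist in mammals as a form found mainly in heart and skeletal muscle (COX6A2, COX7A1) and a form found in most tissues (COX6A1, COX7A2).

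Values are log2 ratios. A positive value is read here as higher in high energy muscle, which is the likely direction because the design text names low energy as its reference and the labels put it in channel 1 of every array. The direction is not stated outright, so the mean of each tested gene comes with a turned value, for which every array with high energy in dye 3 had its sign flipped before averaging. That is what the ratio would be if the deposited values were dye 5 over dye 3, and under the likely reading it is the dye effect.

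Measured values covered 77.6% to 94.4% of the spots of an array. The ratios hold a trace of brightness: most equal, to the digits given, the log2 of 1 whole number over another of which the lesser is under 5000. The larger number, the recovered signal, bounds a spot's brightness from below. Its median per array was 187 to 607. Of 16 skeletal muscle markers 15 had a spot, and 10 of these had a median recovered signal of at least 1000, as did 21.5% of all 2922 genes. Of the markers of other cell types, 2 of 6 for fat, 4 of 5 for blood, 4 of 7 for vessels, 3 of 6 for fibroblasts, 2 of 6 for immune cells and 1 of 3 for nerve had a spot, and 0, 1, 0, 1, 1 and 0 of them reached that level.

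No cytochrome c oxidase subunit passed the test in high against low energy muscle, and the mean ratios of the subunits lay close to 0. Of the 9 genes 8 could be tested, which required both orientations in at least 3 couples. Of these 8, 3 were above 0 and 5 below, with a median of -0.0096 and a range of -0.14 to 0.17, beside a median of -0.012 over all 5025 features tested. Of all features 46.4% were above 0 and 53.6% below. Without couple 3, 3 of the 8 subunits were below 0 instead of 5. In limma's test with Benjamini-Hochberg adjustment 0 of 8 passed 0.05, as did 0 of 5025 features (0.0%), with an adjusted p of 0.996 for every subunit. At an unadjusted p under 0.05 there were also 0 of 8 subunits, against 190 features (3.78%), and the smallest unadjusted p of a subunit in limma's test was 0.153, for COX6C. Of the turned values 0 of 8 had an unadjusted p under 0.05, against 2.65% of features. The median size of a subunit's ratio was 0.055 and its median standard error 0.12, beside 0.090 and 0.13 over all features.

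**Figure D1:**
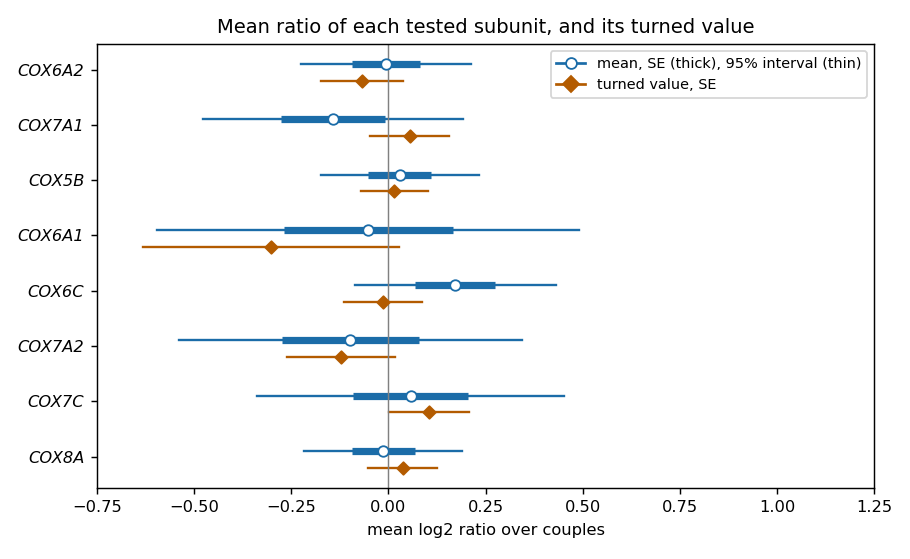
Mean log2 ratio of the 8 tested subunits over couples (circles) with the standard error (thick bar) and the 95% interval (thin bar), and the turned value with its standard error (diamonds); muscle isoforms are at the top. Every 95% interval crosses 0, and the intervals of COX5B, COX6A2 and COX8A are the narrowest.

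COX6A2, the subunit 6A form of heart and skeletal muscle, showed no difference beyond the spread between couples. With high energy in dye 5 it had log2 ratios of 0.23, -0.0061, -0.060 and -0.35 in couples 1 to 4, and with high energy in dye 3 it had -0.0016, -0.0069, 0.15 and 0.12. Values lay on both sides of 0 in both orientations, and couple 4 held the lowest of them. The mean ratio was -0.0057 ± 0.088 (limma's SE, n = 4 couples; turned -0.068), and 0.042 without couple 4. As a fold this was 0.996, with a 95% interval of 0.856 to 1.16. A change within that interval could not be told from none at this precision.

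COX7A1, the subunit 7A form of heart and skeletal muscle, had a mean below 0 in every couple, by next to nothing in couples 1 and 2. It had 0.14, 0.14, -0.26 and -0.35 in couples 1 to 4 with high energy in dye 5, and -0.15, -0.14, -0.61 and -0.014 with high energy in dye 3. All 4 arrays with high energy in dye 3 were below 0, whereas those with high energy in dye 5 divided evenly. The couple means were -0.0041, -0.00019, -0.43 and -0.18, and without centring the arrays couples 1 and 2 stood at 0.00017 and 0.0020, above 0. The mean ratio was -0.14 ± 0.13 (SE, n = 4 couples; turned 0.055), a fold of 0.907 with a 95% interval of 0.719 to 1.14, and it fell short of the test (adjusted p = 0.996 in limma). It was -0.061 without couple 3. Of the 7 subunits measured in all 4 couples, only COX7A1 had the same sign in all of them, and this rested on the centring, against 16.6% of the 3640 features measured so. No subunit had 1 sign on all 8 arrays, against 2.25% of those features.

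COX7A1 was printed as 4 pairs of neighbouring spots, more than any other subunit. The pair means over couples were -0.15, -0.17, -0.13 and -0.19, all below 0 (turned 0.25, -0.025, -0.11 and 0.033), with SDs between couples of 0.090, 0.035, 0.41 and 0.22; the second pair was measured in 2 couples and the others in 4. Within couples the pairs disagreed: in couple 2 they gave -0.20, 0.27 and -0.24, and in couple 1 they gave -0.041, -0.14, 0.025 and 0.14. In couples 3 and 4 every measured pair was below 0, from -0.70 to -0.25 in couple 3 and from -0.29 to -0.11 in couple 4. The pairs of a gene share each array's RNA and are no replicates of the diets.

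**Figure D2:**
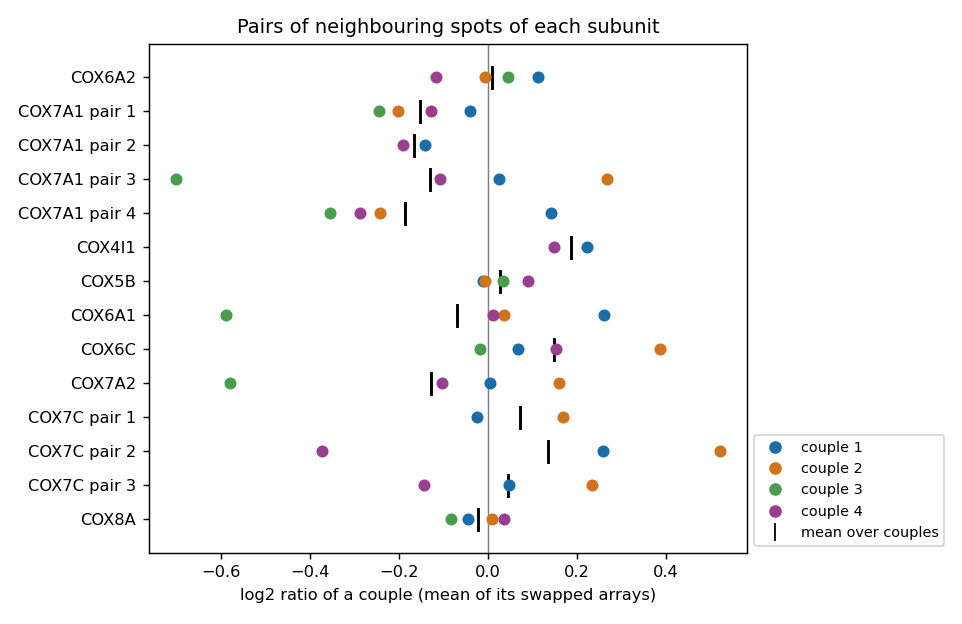
Log2 ratio of each couple (coloured points, mean of its swapped arrays) for each pair of neighbouring spots of the 9 subunits, with the mean over couples as a black bar; muscle isoforms are at the top. The 4 COX7A1 pairs have means between -0.19 and -0.13, while their couples spread on both sides of 0 in pairs 3 and 4.

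Genes of slow, oxidative fibres lay on the same side as COX7A1. Of 10 slow fibre genes tested, all 10 were below 0, with a median of -0.11 (turned -0.0029), while the fast fibre list had a median of 0.036 (turned -0.0035), 5 above 0 and 4 below. Of all features 53.6% were below 0. In limma 0 of these 19 genes passed after adjustment, and at an unadjusted p under 0.05 there were 3 slow fibre genes below 0 and 1 fast fibre gene above, beside 3.78% of all features in either direction. These lists were fixed with earlier results of these data known, and the part of the fibre mix in the COX7A1 values was not tested.

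The difference between muscle and general isoforms depended on couple 3. COX6A2 minus COX6A1 was -0.15, -0.043, 0.63 and -0.13 in couples 1 to 4, with a mean of 0.079 ± 0.37 (SD, n = 4 couples; turned 0.24). COX7A1 minus COX7A2 was -0.0084, -0.16, 0.15 and -0.076, with a mean of -0.025 ± 0.13 (SD, n = 4 couples; turned 0.21). In both pairs the muscle form was thus relatively higher in couple 3 and lower in the other couples. In couple 3 the array with high energy in dye 5 gave differences of 1.48 and 0.75, and its swapped array gave -0.21 and -0.45. That array set the sign. Averaged over both isoform pairs the difference was 0.027 with all couples (turned 0.22), -0.094 without couple 3, and -0.15 when only that array was left out, its swapped array standing for the couple. On that array all 7 subunits measured everywhere were below 0, with a median of -0.22, while on the other 7 arrays their medians lay between -0.11 and 0.070.

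Among the general subunits, COX4I1 and COX5B reach into the mitochondrial matrix. COX4I1, the general form of subunit 4, was measured on 5 arrays. It had 0.37, 0.23 and 0.33 in couples 1, 3 and 4 with high energy in dye 5, and 0.074 and -0.031 in couples 1 and 4 with high energy in dye 3. Values were above 0 on 4 of 5 arrays, and higher with high energy in dye 5 in both couples that had both orientations. Its plain mean was 0.19 ± 0.053 (SD, n = 2 couples; turned 0.16), with no test. Both couples were above 0, at 0.22 and 0.15. Only 2 arrays had values for both COX4I1 spots, and in couple 4 with high energy in dye 5 these stood at 0.61 and 0.046.

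COX5B, a zinc-binding subunit, was measured about as precisely as COX8A, and more so than the other subunits. It had -0.085, -0.0034, -0.0017 and 0.21 with high energy in dye 5, and 0.060, -0.012, 0.070 and -0.029 with high energy in dye 3, in couples 1 to 4. Apart from couple 4 with high energy in dye 5, every value, a mean of 2 spots, was within 0.1 of 0. The spots had opposite signs on 5 of 8 arrays. In couple 1 with high energy in dye 5 they stood at -0.36 and 0.19. Over couples it averaged 0.029 ± 0.081 (SE, n = 4 couples; turned 0.015), a fold of 1.02 with a 95% interval of 0.886 to 1.17.

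COX6A1, the general form of subunit 6A, was the least precise. It had 0.66, -0.48, -1.54 and -0.11 with high energy in dye 5, and -0.14, 0.55, 0.36 and 0.14 with high energy in dye 3. The swapped arrays had opposite signs in every couple, with a median gap of 0.91 between them, beside 0.31 over all tested features. The mean ratio was -0.052 ± 0.22 (SE, n = 4 couples; turned -0.30 ± 0.33), and 0.10 without couple 3. The 95% interval ran from 0.662-fold to 1.41-fold.

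COX7A2, the general form of subunit 7A, had 0.050, 0.13, -1.01 and -0.23 with high energy in dye 5, and -0.042, 0.19, -0.15 and 0.019 with high energy in dye 3. The value of couple 3 in the first orientation lay far below the other 7 arrays. It rested on 1 of the 2 spots, which stood at -1.87 and -0.14 there. Its mean was -0.098 ± 0.18 (SE, n = 4 couples; turned -0.12), and 0.020 without couple 3.

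The remaining subunits, COX6C, COX7C and COX8A, are small proteins that each cross the inner membrane. COX6C had the highest mean ratio of the tested subunits over all couples. It had -0.012, 0.56, -0.22 and 0.13 with high energy in dye 5, and 0.15, 0.22, 0.19 and 0.18 with high energy in dye 3. It was above 0 on 6 of 8 arrays, including all 4 with high energy in dye 3. Its mean was 0.17 ± 0.10 (SE, n = 4 couples; turned -0.014), a fold of 1.13 with a 95% interval of 0.941 to 1.35, and it did not pass (adjusted p = 0.996 in limma). Without couple 2 the mean was 0.080. COX7C stood higher than COX6C without couple 4, at 0.22 against 0.18, and level with it with high energy in dye 5 alone, at 0.16 for each. Both COX6C spots stood 2.32 apart on the couple 3 array with high energy in dye 5, and the COX6C mean was -0.031 when 1 spot stood for the gene.

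COX7C had 0.18, 0.34 and -0.031 in couples 1, 2 and 4 with high energy in dye 5, and 0.032, 0.33, 0.16 and -0.50 in couples 1 to 4 with high energy in dye 3. As means over spots, couples 1 and 2 were above 0 in both orientations and couple 4 below 0 in both. Single spots disagreed: in couple 4 with high energy in dye 5 they ran from -0.46 to 0.59. Neighbouring COX7C spots differed by a median of 0.49, 0.72 and 0.66 in the 3 pairs, beside 0.30 for named pairs in general. The mean ratio was 0.057 ± 0.15 (SE, n = 3 couples; turned 0.11), and -0.081 without couple 2. Its 3 pairs of spots had means of 0.072, 0.14 and 0.045 (turned 0.056, -0.059 and 0.30), of which the first rested on 2 couples.

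COX8A had -0.11, 0.026, -0.093 and 0.19 with high energy in dye 5, and 0.023, -0.011, -0.076 and -0.12 with high energy in dye 3. No value, each a mean of 2 spots, was farther than 0.2 from 0, while single spots ran from -0.40 to 0.40. Over couples it averaged -0.013 ± 0.081 (SE, n = 4 couples; turned 0.036), a fold of 0.991 with a 95% interval of 0.860 to 1.14.

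**Figure D3:**
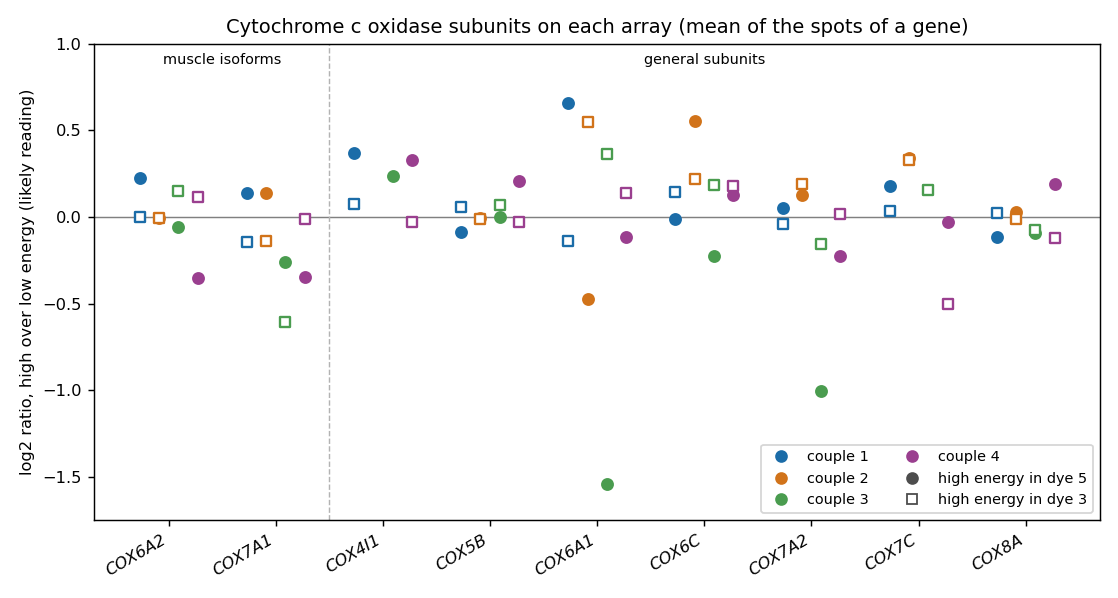
Log2 ratio of each subunit (mean of its spots) on each array, with couples by colour and the dye of the high energy sample by symbol; muscle isoforms are left of the dashed line. COX6A1 at -1.54 and COX7A2 at -1.01 on the couple 3 array with high energy in dye 5 lie below all other points, while COX5B and COX8A stay between -0.12 and 0.21.

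The precision of a subunit went with the recovered signal of its spots. Signal and spread are not independent, since the signal is computed from the ratio itself. A small nonzero ratio can only come from large whole numbers. How much of the relation arises in this way was not tested. Median recovered signals were 16332.5 for COX6A2, 15555 for COX5B and 4288.5 for COX8A, and 173 to 530.5 for the other 6 subunits. These values bound brightness from below and say nothing of which subunit is more abundant. Spots whose median recovered signal was at least 5000 had an SD over arrays of 0.082 to 0.24 for the 4 subunit spots in that range, beside a median of 0.17 for all 925 such spots. In the range of 300 to 1000 the SD was 0.20 to 0.72 for 8 subunit spots, beside a median of 0.42 for all 3965. Across the 20 subunit spots measured on 6 or more arrays, Spearman's rho between signal and SD was -0.78, and across all 8484 such spots it was -0.53; spots share arrays and are no independent replicates. Neighbouring spots of COX5B and COX6A2 differed by a median of 0.074 and 0.077 on an array, those of COX6A1 by 0.46, and named pairs in general by 0.30. The order was not strict: the bright COX8A spots differed by 0.26, with opposite signs on 6 of 8 arrays, and the second COX7A1 pair, at a signal of 502, by 0.18 on 4 arrays. With values under a recovered signal of 1000 left out, a filter chosen after the data were seen, only these 3 bright subunits could be tested. Their ratios were then 0.0030 for COX5B, -0.024 for COX6A2 and -0.034 for COX8A.

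**Figure D4:**
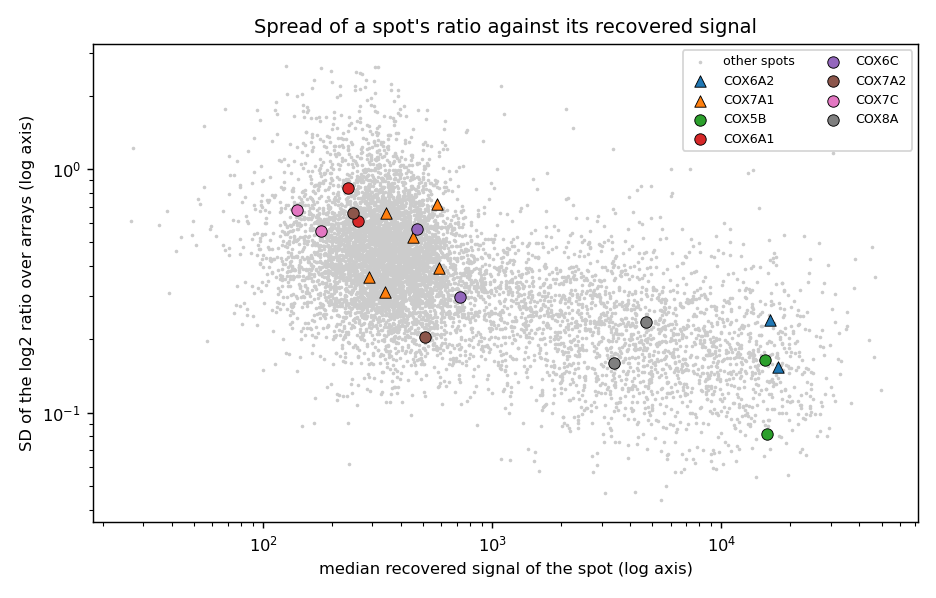
SD of the log2 ratio over arrays against the median recovered signal for every spot measured on 6 or more arrays (grey, both axes logarithmic), with the spots of the subunits in colour and muscle isoforms as triangles. Spots of COX5B, COX6A2 and COX8A lie at signals above 1000 with SDs under 0.25, and those of the other subunits lie at signals below 1000 with SDs of 0.20 to 0.84.

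The 4 other genes listed with the subunits that could be tested had means below 0, and none passed the test. Of 11 further genes listed 5 had a spot and 4 could be tested, with a median of -0.094 (turned -0.022). COXFA4, also known as NDUFA4 and formerly assigned to complex I, had -0.14 ± 0.099 (turned 0.11). COX7B, a small membrane subunit, had -0.12 ± 0.11 (turned -0.053; both SE, n = 4 couples). The 8 and the 4 together gave 9 of 12 genes below 0, or 75%, beside 53.6% of all features. Without couple 3, 3 of the 8 were below 0 instead of 5. COX4I2, the second form of subunit 4, was measured in both orientations in 2 couples and was not tested. These stood at -0.14 and 0.16, with a plain mean of 0.011 ± 0.21 (SD, n = 2 couples; turned -0.35). The 3 mitochondrially encoded subunits were not analysed here.

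Assembly factors and the supply of electrons to the complex lay close to 0. Of 11 assembly genes with a spot 7 were tested, 4 above 0 and 3 below, with a median of 0.020 (turned -0.093). COX20, which helps to mature the COX2 subunit, had -0.17 ± 0.10 (turned -0.17), and COX14, an assembly factor for COX1, had -0.096 ± 0.086 (turned -0.079; both SE, n = 4 couples). Of 8 genes of complex III and cytochrome c tested, 5 were above 0 and 3 below, with a median of 0.026 (turned -0.020). Its members with the smallest p were the complex III subunits UQCR10 at 0.15 ± 0.11 (turned 0.082) and UQCRC2 at 0.10 ± 0.084 (turned 0.026; both SE, n = 4 couples).

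The other complexes gave no call either. Of 31 complex I genes tested, 13 were above 0 and 18 below, with a median of -0.024 (turned -0.0063). NDUFB9, a complex I subunit, stood above 0 on each of 8 arrays, with a mean of 0.21 ± 0.091 (turned 0.065), and NDUFAB1, its acyl carrier protein, had -0.31 ± 0.14 (turned 0.22). Of 17 ATP synthase genes, 5 were above 0 and 12 below, with a median of -0.058 (turned 0.024). ATP5F1B, a catalytic subunit, had -0.17 ± 0.098 (turned -0.013) and was below 0 on all 8 arrays, and ATP5MK, a small membrane subunit, had -0.22 ± 0.13 (turned 0.057). Of features measured on all 8 arrays, 2.25% had 1 sign on every one. Of 9 genes of mitochondrial biogenesis and content, 7 were above 0 and 2 below, with a median of 0.037 (turned -0.019). CS, citrate synthase, had 0.27 ± 0.14 (turned -0.019), and HSPD1, a mitochondrial chaperonin, had 0.15 ± 0.11 (turned 0.24; all SE, n = 4 couples). In these 6 lists 0 genes passed in limma after adjustment and 0 had an unadjusted p under 0.05.

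**Figure D5:**
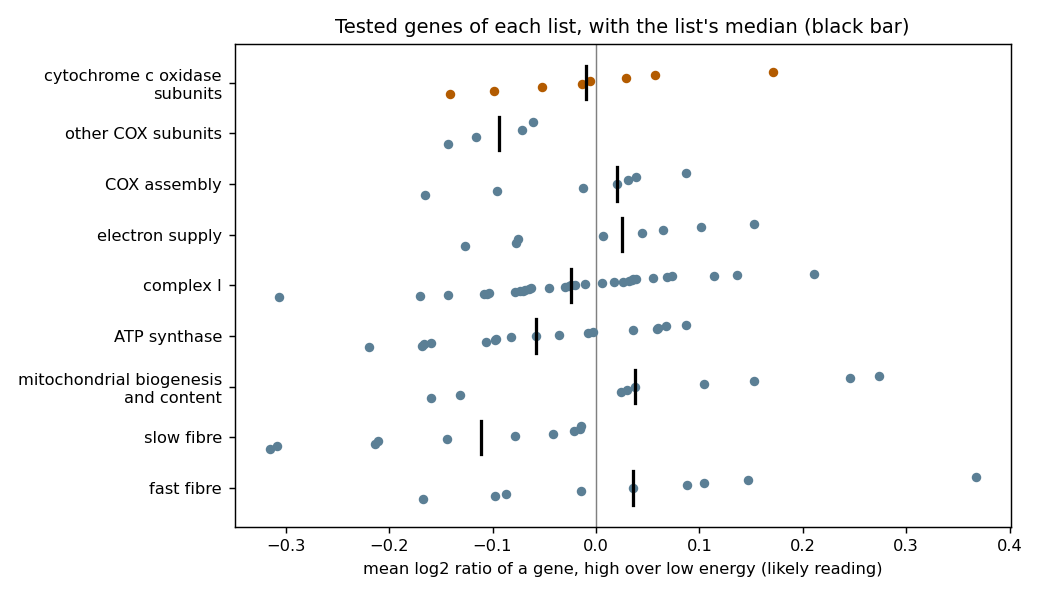
Mean log2 ratio of each tested gene (points, spread vertically by rank) in the cytochrome c oxidase subunits, the 6 related lists and the fibre type lists, with each list's median as a black bar. The subunits straddle 0 with a median of -0.0096, while the 4 tested genes of the other COX subunit list and the 10 slow fibre genes all lie below 0.

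The subunits did not share a pattern over the arrays. Among the 7 measured on all 8 arrays, the 21 pairwise Pearson correlations over arrays had a median of 0.12, with 14 above 0, beside a median of 0.0043 for pairs of other genes. The highest was 0.83 between COX5B and COX8A and the lowest -0.87 between COX6A2 and COX8A. Both lessened without the couple 4 array with high energy in dye 5, to 0.47 and -0.60. Without the couple 3 array with high energy in dye 5 they were 0.84 and -0.97. It was on the couple 4 array with high energy in dye 5 that COX5B and COX8A were at their highest and COX6A2 at its lowest. The 8 arrays hold 4 couples of RNA, so these are descriptions of these arrays. By Pearson's r over the 8 arrays with the mean of the 7 subunits, the most alike of 1921 other genes were SUPT4H1 (0.96), CNBP (0.96), RPS10 (0.96), BTRC (0.95) and WDR45B (0.95). On the couple 3 array with high energy in dye 5 these 5 genes had ratios of -2.43 to -0.58. Without that array their r lay between 0.53 and 0.80.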

How the data were processed

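The authors deposited log2 ratios of the channels of each array. The unit was read from the values: between 6.89% and 20.8% of an array's values equalled the base 2 logarithm of a ratio of whole numbers, the lesser at most 60, to the digits given, but at most 1.59% in base e and 1.71% in base 10. For background, spot filters and normalization, the authors' steps are not given in the sources used. Per the labels and design text, cDNA was labelled with Cy3 and Cy5.

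Arrays were centred here on their medians (-0.0071 to 0.0115 as deposited). The platform annotation gives no symbol for 3268 of 9984 spots, several for 106 and exactly 1 for 6610. Human accessions stand behind its probes, so pig transcripts may bind a probe unequally. Averaging the spots of a symbol gave 6296 features, of which 5025 had both orientations in at least 3 couples. Couple means were tested against 0 with limma 3.58.1 (lmFit, eBayes; R 4.3.3), two-sided, with Benjamini-Hochberg adjustment at 0.05. Couples sharing a high energy sample were blocked at an assumed correlation of 0.5, which gives couples 1 and 3 less weight. Across features the ratios of couples 1 and 3 correlated at 0.064, and those of the other pairs of couples at -0.016 to 0.083. The script was tested on simulated data. Recovered signals are arbitrary for the 2.94% to 14.1% of values whose lesser number reached 5000; these count as bright. The titles pair the swapped arrays of a couple, whose deviations correlated across features at 0.013, 0.037, 0.025 and -0.045.

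Members, lists and tests were chosen with earlier results of these data known. Named are all members with a spot, the 2 genes with the smallest p of each related list, and the 5 genes most like the subunits' mean. The complex I list held every symbol with its prefixes, assembly factors included. NDUFA4 was matched by gene ID to COXFA4. Alternatives covered centring, scale, the block, the dye reading, single orientations, left-out couples, spots, dim values and the number of couples.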

Additional observations from a re-analysis of the deposited data

How the results depend on the processing

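No subunit and no feature passed in any of the 18 alternative settings. Counts at an unadjusted p under 0.05 were 310 for independent couples, 353 for all 8 arrays with a replicate block by couple, 108 with high energy in dye 5 alone, 108 to 305 without 1 couple, and 67 of 1079 features at a recovered signal of at least 1000, against 190 in the main test. Without couple 1 (270) or couple 3 (305) no sample is shared and the block has no effect, while without couple 2 (108) or couple 4 (142) it stays. The number of subunits below 0 was 5 of 8; it was 3 with high energy in dye 3 alone, 3 to 6 without 1 couple, and 3 without the couple 3 array with high energy in dye 5. COX6A2 changed sign, to 0.0047 with scaled arrays, 0.0084 with independent couples and with the replicate block, 0.063 with high energy in dye 3 alone and 0.015 without that array. COX6A1 changed sign, to 0.25 with high energy in dye 3 alone and 0.14 without that array. With high energy in dye 3 alone COX7A2 was 0.024 and COX7C -0.015, and with high energy in dye 5 alone COX8A was 0.023. With the arrays of dye 3 turned, COX6C was -0.014, COX7A1 0.055 and COX8A 0.036. With 1 spot per gene COX5B was -0.015, COX6C -0.031 and COX8A 0.027. In that setting COX7A2 was -0.32 and COX7C 0.36, farther from 0 than in the main test with the same sign. Without 1 couple in turn, with at least 2 couples required, the ratios ran from -0.18 to 0.10 for COX6A1, -0.026 to 0.042 for COX6A2, -0.21 to 0.020 for COX7A2, -0.081 to 0.22 for COX7C, 0.080 to 0.20 for COX6C and -0.20 to -0.061 for COX7A1. The causes were not tested. The bright filter and the omission of that array were chosen after seeing the data. How far the number of couples, 4, or low recovered signals bear on the lack of calls was not tested.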

Other observations

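On the couple 4 array with high energy in dye 5, the 3 subunits with the highest recovered signals had lower ones than on the other arrays. The recovered signals of the COX5B spots there were 121 and 751, against 7922 to 46499 on the other 7 arrays. Those of COX6A2 were 773 and 5338, against 7352 to 44147, and those of COX8A were 146 and 576, against 982 to 6841. Signals were not low throughout that array: its median recovered signal of 607 was the highest of the 8 arrays. The COX7A2 spots had 891 and 1037 there, against 8 to 618 on the other 7 arrays. Yet fewer values were high. On that array 2.94% of all values had a lesser number of at least 5000. The share was 4.90% on its swapped array and 8.64% to 14.1% on the 6 arrays of couples 1 to 3. Above that limit the recovered signal is arbitrary, and on the other 7 arrays 14 of 14 values of COX5B, 14 of 14 of COX6A2 and 2 of 14 of COX8A lay there, so for COX5B and COX6A2 the size of the gap cannot be read. On the same array COX5B had its highest ratio at 0.21, COX8A its highest at 0.19 and COX6A2 its lowest at -0.35. Recovered signals are computed from the ratios themselves, and the part of signal in these ratios was not tested.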
